A study of Mus musculus with 18 samples.

Results

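The genes described here are 45 markers of pluripotent stem cells and of the first lineages that form from them, out of 54446 gene identifiers counted in mouse embryoid bodies. They were picked by symbol as known markers, and no threshold on a measured value set who was in. The choice was made with earlier results of these data known. The set holds 16 pluripotency genes, 2 genes of the primed epiblast, 6 of mesoderm, 6 of endoderm, Cdx2 of trophectoderm and intestine, 4 neural genes, 3 of heart muscle, 3 of endothelium and 4 of blood. All 45 symbols were found once in the counted annotation.

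The libraries came from C57BL/6 mouse embryonic stem cells that were left to differentiate for 7 days as embryoid bodies, floating cell aggregates in which stem cells leave the pluripotent state. There were 6 groups of 3 libraries. The groups of the Mettl14 line were the conditional knockout (CKO) with 5 µM GSK343, the CKO, and the control. Those of the Mettl3 line were the CKO with 5 µM GSK-J4, the CKO, and the control. Mettl14 and Mettl3 encode partner subunits of the complex that methylates adenosines in mRNA. GSK343 inhibits EZH2, which methylates lysine 27 of histone H3, and GSK-J4 inhibits the KDM6 demethylases, which remove that mark. The CKO groups without inhibitor received the solvent DMSO, no vehicle is named for the controls, and the way the knockout was induced and the number of clones per line are not stated in the labels. Every group shares the strain, the medium, the 7 days and the growth on ultra-low-attachment plates without feeder cells.

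Naive pluripotency rests on a small circuit of transcription factors, with Pou5f1 (OCT4), Nanog and Sox2 at its core and Esrrb, Klf2, Klf4, Klf5 and Tfcp2l1 around it. When stem cells aggregate without the cytokine LIF they pass through a primed state marked by Fgf5 and Otx2. They then give mesoderm and endoderm through a phase like gastrulation, and neural cells by another route. In embryoid bodies, outer endoderm, beating heart muscle, early vessels and embryonic blood are commonly seen, and each has its marker here. Several members are not restricted to the embryo's first lineages: Pdgfra, Nes, Runx1 and the Klf factors are also made by connective tissue and other adult cells.

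Total counts ran from 721853 to 20714764 with GSK343, from 1303697 to 8688596 in the Mettl14 CKO and from 8288902 to 10285737 in the Mettl14 controls. They ran from 3395675 to 8289423 with GSK-J4, from 17544904 to 32540164 in the Mettl3 CKO and from 21615674 to 29496824 in the Mettl3 controls. A floor of 3 counts per library therefore stood between 0.0922 and 4.16 CPM (the count of a gene per 1 M counts of its library). Those with GSK-J4 formed a group of their own. Their mitochondrial share was 0.112 to 0.244% of counts, against 1.29 to 3.24% elsewhere, and the Spearman correlations among them were 0.812 to 0.846, while the other 5 groups gave 0.893 to 0.975. Mettl14 had 12.1, 17.1 and 12.5 CPM with GSK343, 15.3, 22.9 and 17.6 CPM in the Mettl14 CKO, and 17.1, 18.1 and 16.8 CPM in its controls. Mettl3 had 8.54, 28.6 and 13.6 CPM with GSK-J4, 25.9, 6.90 and 18.1 CPM in the Mettl3 CKO, and 20.3, 33.6 and 18.6 CPM in its controls. Counts over a whole gene do not check a deletion of part of it. The labels do not tie replicates to separate cultures, so p-values measure the spread between these libraries, which may be technical. In such bulk RNA, fewer cells of a type and less RNA per cell cannot be told apart.

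The promoters of 4 members are shown because these genes lie at the ends of the range of levels described next: Pdgfra and Klf4 had the highest levels per length, and Sox1 and Cdx2 were at or near 0. Each sequence covers 250 bases before to 50 bases after the start listed by RefSeq for build GRCm38.p6, and capitals mark the dinucleotide CG, which reads the same on both strands. The windows are chr5:75152001-75152300 (plus strand) for Pdgfra, chr4:55532426-55532725 (minus strand) for Klf4, chr8:12395269-12395568 (plus strand) for Sox1 and chr5:147307200-147307499 (minus strand) for Cdx2.
Pdgfra: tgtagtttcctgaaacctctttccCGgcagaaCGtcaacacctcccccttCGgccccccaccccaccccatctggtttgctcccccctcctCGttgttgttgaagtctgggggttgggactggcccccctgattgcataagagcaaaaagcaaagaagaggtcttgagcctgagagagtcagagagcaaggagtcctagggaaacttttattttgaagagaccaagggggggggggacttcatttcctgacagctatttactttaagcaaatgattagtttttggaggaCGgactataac
Klf4: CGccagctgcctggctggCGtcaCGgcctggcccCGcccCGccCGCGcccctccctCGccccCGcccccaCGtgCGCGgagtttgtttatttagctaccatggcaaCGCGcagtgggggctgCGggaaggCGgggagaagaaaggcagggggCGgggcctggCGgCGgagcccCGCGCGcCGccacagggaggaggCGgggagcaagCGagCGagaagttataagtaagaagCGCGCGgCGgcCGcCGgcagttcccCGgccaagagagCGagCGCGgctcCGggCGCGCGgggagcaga
Sox1: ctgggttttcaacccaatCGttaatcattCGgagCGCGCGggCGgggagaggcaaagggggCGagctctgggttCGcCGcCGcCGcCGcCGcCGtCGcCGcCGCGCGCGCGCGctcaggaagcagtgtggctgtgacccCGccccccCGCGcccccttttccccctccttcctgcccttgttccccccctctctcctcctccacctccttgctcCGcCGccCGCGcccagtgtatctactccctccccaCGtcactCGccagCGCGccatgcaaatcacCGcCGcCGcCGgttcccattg
Cdx2: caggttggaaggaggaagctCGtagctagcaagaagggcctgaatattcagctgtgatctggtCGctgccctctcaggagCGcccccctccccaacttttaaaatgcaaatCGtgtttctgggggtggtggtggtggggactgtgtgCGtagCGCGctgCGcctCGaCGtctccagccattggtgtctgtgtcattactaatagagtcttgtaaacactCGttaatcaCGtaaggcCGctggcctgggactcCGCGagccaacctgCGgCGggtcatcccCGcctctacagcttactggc
The dinucleotide occurred 40 times in the Klf4 window and 37 times in the Sox1 window. It occurred 18 times in the Cdx2 window and 5 times in the Pdgfra window. Among 27025 promoters of that length, with a median of 7, windows with at least as many made up 3.80%, 5.37%, 30.1% and 61.7% for Klf4, Sox1, Cdx2 and Pdgfra in that order. A CG-rich window and a CG-poor one thus stood among the high members, and CG-rich windows stood among the low ones. CG-poor windows stood among the low members too, such as Myh6 with 2 and Gata1 with 4, whose sequences are not shown. The table held a promoter for 32 of the 45 members (71.1%), under the 80% needed, so no summary over the set is given.

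Few of the markers were present throughout. Klf4, Klf5, Kdr, Pdgfra, Nes and Runx1, 6 of 45 members (13.3%), had at least 1 count in all 18 libraries, against 15.8% of all identifiers and 37.6% of protein-coding genes. Thinned to 721853 counts per library, the number was 5 of 45 (11.1%), against 35.4% of protein-coding genes. Cdx2, a master factor of trophectoderm and gut, and Hbb-bh1, the embryonic globin of primitive red cells, had no count in any library. Over a group, a floor of 3 counts for these 2 genes is 0.0917 CPM with GSK343, 0.177 in the Mettl14 CKO and 0.112 in the Mettl14 controls, and 0.181 with GSK-J4, 0.0379 in the Mettl3 CKO and 0.0376 in the Mettl3 controls. These limits, like the intervals given further on, cover counting error only.

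**Figure D1:**
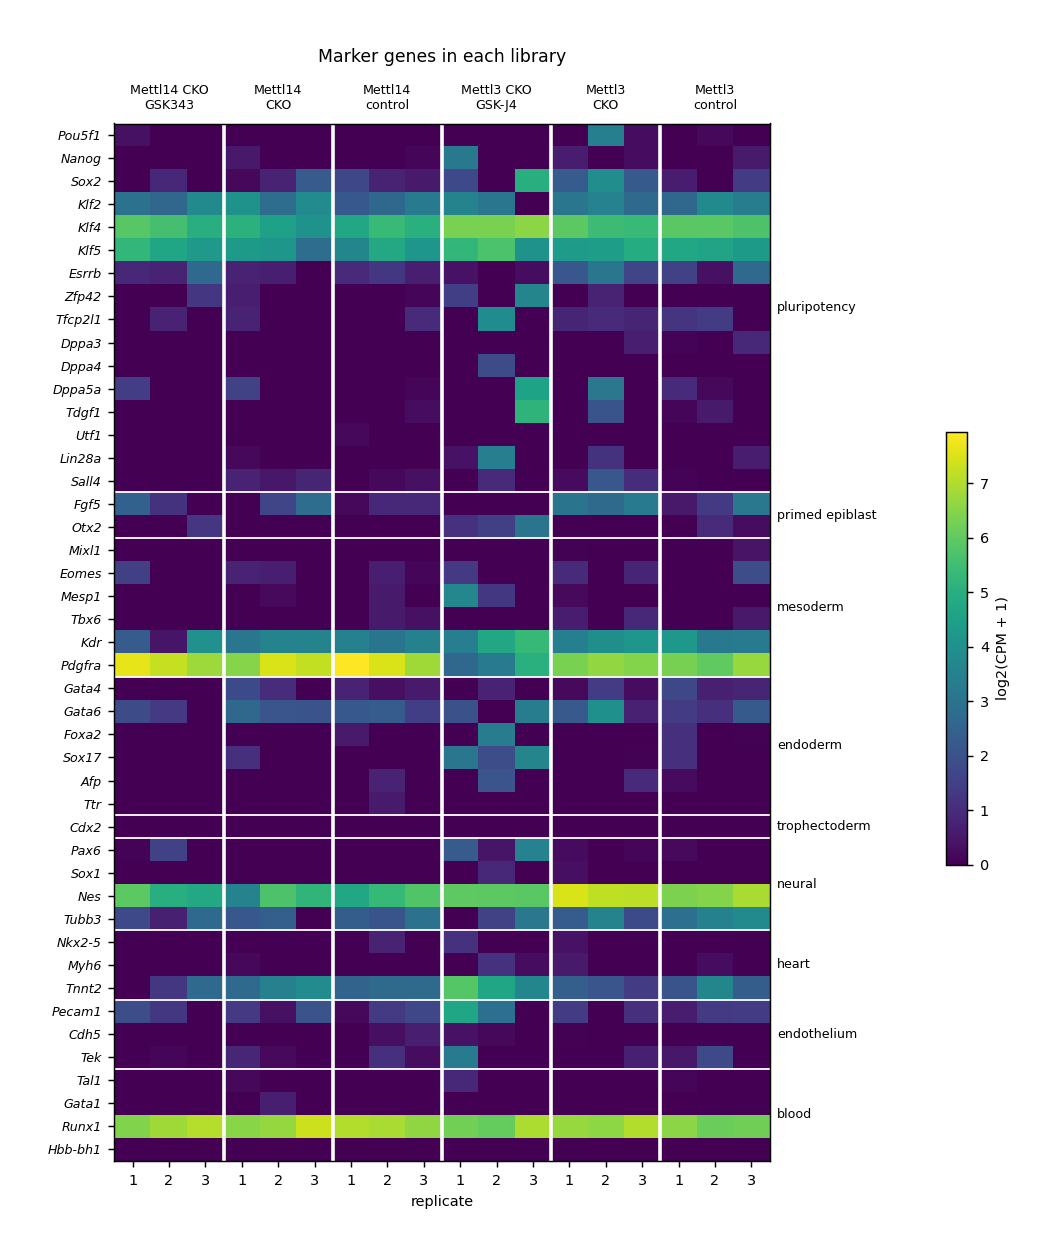
Level of each of the 45 marker genes (rows, grouped by lineage) in each of the 18 libraries (columns, 3 replicates per group), colored by log2(CPM + 1). Pdgfra, Runx1, Nes, Klf4, Klf5 and Kdr form continuous bright rows, while 26 rows have a median of 0 over the 15 libraries without GSK-J4.

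Over the 15 libraries without GSK-J4, 26 members had a median of 0. Of their 468 values over all 18 libraries, 370 were 0 (79.1%), 29 were 1 to 3 counts, 25 were 4 to 9, and 44 were 10 or more. The highest was 171 counts, for Pou5f1 in replicate 2 of the Mettl3 CKO. Dppa4, Utf1, Ttr and Gata1 were counted in 1 library each, Cdx2 and Hbb-bh1 in none, and the other 20 in several.

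The label of differentiating stem cells was compared with other marker lists of defined cell types. The 20 genes of fibroblasts and mesenchyme were abundant: 19 had a median of 10 CPM or more over the 15 libraries, and the median gene of the list had 538 CPM, while the median gene of the 45 had 0. The highest of the list were Spp1 (osteopontin) at 16802 CPM, Fn1 (fibronectin) at 6806, Col1a1 (type I collagen) at 5789 and Sparc at 3226. Summed, the list had 37614 to 40238 CPM with GSK343, 37980 to 46176 in the Mettl14 CKO and 45441 to 51486 in the Mettl14 controls, and 14791 to 24239 with GSK-J4, 50775 to 54859 in the Mettl3 CKO and 38668 to 47337 in the Mettl3 controls. All 45 markers together had 350 to 467 CPM in the Mettl14 controls and 354 to 427 CPM in the Mettl3 controls. CPM does not allow for gene length. Per length (TPM, explained further on), the list had 43102 to 47850 and the 45 markers 147 to 186 in the Mettl14 controls. In the Mettl3 controls they had 27592 to 34066 and 138 to 194. The lists were chosen with earlier results of these data known, so the contrast is a description. Markers of the lineages usual in embryoid bodies were partly absent. T, Afp, Ttr, Nkx2-5, Gata1 and Hbb-bh1 had a median of 0 over the 15 libraries, while Gata6 had 3.07, Tnnt2 4.71, Kdr 10.3 and Runx1 100.45 CPM.

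**Figure D2:**
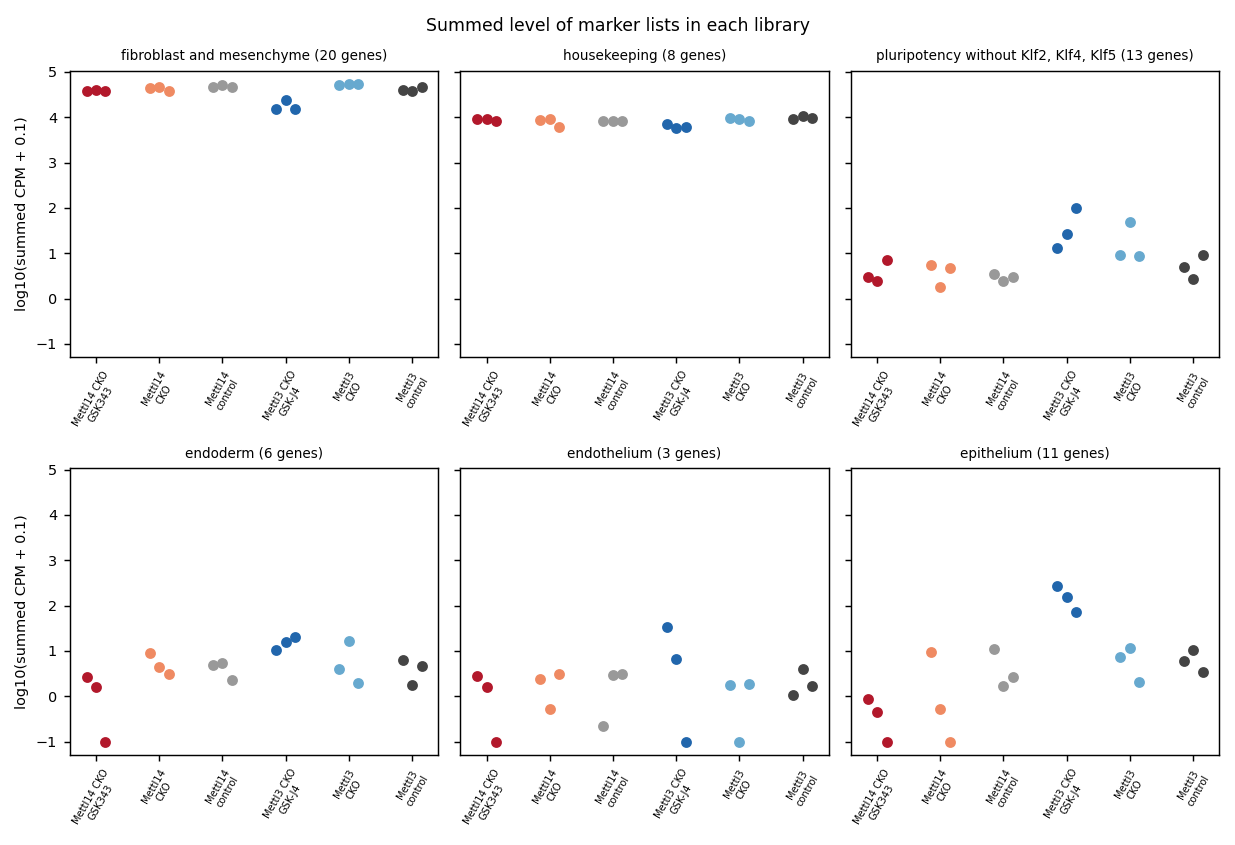
Summed level of 6 marker lists in each library, as log10(CPM + 0.1), with 3 points per group and one color per group. The fibroblast and mesenchyme list lies at 37614 CPM or more in every library without GSK-J4 and at 14791 to 24239 with it, and the epithelium list lies at 71.5 to 272 CPM with GSK-J4 against at most 11.7 elsewhere.

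The number of members seen differed with depth. Between 12 and 27 members had a count per library, with the lowest numbers in the libraries of 721853 and 1303697 counts. After thinning, the number was 12 to 13 with GSK343, 12 to 15 in the Mettl14 CKO and 11 to 14 in the Mettl14 controls. It was 16 to 22 with GSK-J4, 15 to 20 in the Mettl3 CKO and 14 to 18 in the Mettl3 controls.

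**Figure D3:**
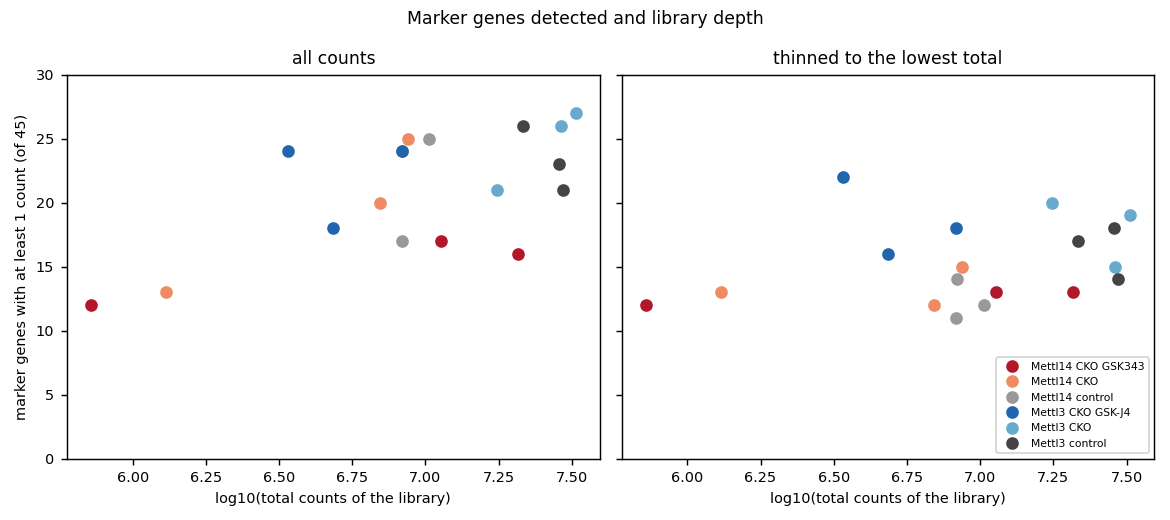
Number of marker genes with at least 1 count (of 45) against the log10 of the library's total, with all counts on the left and with every library thinned to 721853 counts on the right. One point is 1 library, and after thinning the points lie between 11 and 22.

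Among the 16 pluripotency genes, only the 3 Klf factors had a median of 1 CPM or more over the 15 libraries. Klf4 and Klf5, zinc finger factors that help maintain naive stem cells and that epithelial and mesenchymal cells also use, had counts in all 18 libraries. Klf4 had 57.7, 47.6 and 30.5 CPM with GSK343, 33.5, 22.5 and 15.3 in the Mettl14 CKO and 26.2, 40.7 and 31.7 in the Mettl14 controls. In the other line it had 80.4, 79.0 and 92.8 CPM with GSK-J4, 60.5, 42.8 and 40.6 in the Mettl3 CKO and 58.3, 58.4 and 51.3 in the Mettl3 controls. All 3 GSK-J4 libraries lay above all others for Klf4, and the remaining groups overlapped within each line. Klf5 had 36.8, 24.4 and 18 CPM with GSK343, 19.1, 17.5 and 6.14 in the Mettl14 CKO and 11.5, 26.8 and 17.0 in the Mettl14 controls. It had 37.1, 50.4 and 15.9 CPM with GSK-J4, 19.4, 20.5 and 28.9 in the Mettl3 CKO and 25.5, 24.0 and 18.9 in the Mettl3 controls, so the groups overlapped. Klf2, another factor of this family that is prominent in vessels, had 6.95, 5.13 and 12.5 CPM with GSK343, 15.4, 6.16 and 13 in the Mettl14 CKO and 3.50, 5.30 and 8.36 in the Mettl14 controls. It had 10.6, 7.72 and 0 CPM with GSK-J4, 7.62, 10.4 and 5.70 in the Mettl3 CKO and 5.23, 12.6 and 9.10 in the Mettl3 controls. Its only library without a count was replicate 3 with GSK-J4.

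Of the core of the circuit, Pou5f1 and Nanog were at 0 in most libraries, and Sox2 had a count in 14 of 18. Pou5f1 had 0.290 CPM in replicate 1 with GSK343, 9.75 and 0.207 CPM in replicates 2 and 3 of the Mettl3 CKO, 0.136 CPM in replicate 2 of the Mettl3 controls, and 0 in the other 14 libraries. Nanog had 8.25, 0 and 0 CPM with GSK-J4, 0.553, 0 and 0.207 in the Mettl3 CKO and 0, 0 and 0.488 in the Mettl3 controls. In the Mettl14 line it had 0.460 CPM in replicate 1 of the CKO, 0.0972 CPM in replicate 3 of the controls and 0 in the other 7 libraries. Both genes thus had 1 library far above the rest. Sox2, which neural progenitors also use, had 0, 0.885 and 0 CPM with GSK343, 0.115, 0.716 and 3.84 in the Mettl14 CKO and 2.29, 0.722 and 0.486 in the Mettl14 controls. It had 2.36, 0 and 30.5 CPM with GSK-J4, 3.90, 13.9 and 3.76 in the Mettl3 CKO and 0.555, 0 and 1.67 in the Mettl3 controls. The 3 Mettl3 CKO libraries lay above the 3 controls, while the GSK-J4 libraries spanned the whole range. Sox2 lies within the longer transcript Sox2ot on the same strand, which had 14, 53 and 85 counts with GSK-J4, 5, 0 and 64 in the Mettl3 CKO and 1, 4 and 8 in the Mettl3 controls. How the counting treated reads that overlap both genes is not given in the sources used here.

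The rest of the naive set was scattered. Esrrb, a nuclear receptor of the naive circuit, had 0.869, 0.708 and 5.54 CPM with GSK343, 0.691, 0.573 and 0 in the Mettl14 CKO and 0.965, 1.44 and 0.583 in the Mettl14 controls. It had 0.294, 0 and 0.206 CPM with GSK-J4, 3.41, 7.69 and 2.17 in the Mettl3 CKO and 1.94, 0.271 and 5.58 in the Mettl3 controls, so its GSK-J4 values were all below those of the CKO. Sall4, a zinc finger factor of stem and germ cells, had no count with GSK343, 0.691, 0.430 and 0.767 CPM in the Mettl14 CKO, and 0, 0.120 and 0.292 in the Mettl14 controls. It had 0, 0.965 and 0 CPM with GSK-J4, 0.184, 3.48 and 1.04 in the Mettl3 CKO and 0.0463, 0 and 0 in the Mettl3 controls, where the CKO lay above its controls. Tfcp2l1, another naive factor, had 0, 0.708 and 0 CPM with GSK343, 0.691, 0 and 0 in the Mettl14 CKO and 0, 0 and 0.972 in the Mettl14 controls. It had 0, 13.4 and 0 CPM with GSK-J4, 0.768, 0.912 and 0.759 in the Mettl3 CKO and 1.30, 1.59 and 0 in the Mettl3 controls.

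A few pluripotency genes had their highest value in a GSK-J4 library, but not in the same one. Zfp42 (REX1) had 1.77, 0 and 11.1 CPM with GSK-J4, 0, 0.684 and 0 in the Mettl3 CKO and no count in the Mettl3 controls. Tdgf1 (Cripto, a co-receptor for NODAL) had 0, 0 and 35 CPM with GSK-J4, 0, 3.19 and 0 in the Mettl3 CKO and 0.0925, 0.475 and 0 in the controls. Dppa5a, an RNA-binding protein of stem cells, had 0, 0 and 23.1 CPM with GSK-J4, 0, 7.75 and 0 in the Mettl3 CKO and 0.925, 0.136 and 0 in the controls. Each of the 3 peaked in replicate 3. Lin28a, which blocks the maturation of let-7 microRNAs, had 0.294, 9.41 and 0 CPM with GSK-J4, 0, 1.25 and 0 in the Mettl3 CKO and 0, 0 and 0.558 in the controls, with its peak in replicate 2. In the Mettl14 line these 4 genes were mostly at 0. Zfp42 had 1.39 CPM in replicate 3 with GSK343, 0.575 in replicate 1 of the CKO and 0.0972 in replicate 3 of the controls, and Dppa5a had 1.69 and 1.96 CPM in replicate 1 with GSK343 and of the CKO and 0.0972 in replicate 3 of the controls. Tdgf1 had 0.194 CPM in replicate 3 of the Mettl14 controls and Lin28a 0.115 CPM in replicate 1 of the Mettl14 CKO, and all their other libraries of that line were at 0. Dppa3, Dppa4 and Utf1 had counts in 3, 1 and 1 libraries and at most 0.837, 2.53 and 0.121 CPM. Of the 13 pluripotency genes other than the Klf factors, 3, 3 and 4 reached 1 CPM in the GSK-J4 libraries and 2, 7 and 3 in the Mettl3 CKO, against 2, 1 and 2 in the Mettl3 controls. Replicate 2 of the Mettl3 CKO thus held the most, among them Pou5f1, Sox2, Esrrb, Dppa5a, Tdgf1, Lin28a and Sall4, with a sum of 48.6 CPM for the 13 genes against 8.82 and 8.73 in the other CKO libraries.

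The primed epiblast genes behaved unlike each other. Fgf5, a growth factor of the primed epiblast that hair follicles and fibroblasts also make, had 4.49, 1.24 and 0 CPM with GSK343, 0, 2.15 and 6.14 in the Mettl14 CKO and 0.121, 0.843 and 0.875 in the Mettl14 controls. In the Mettl3 line it had no count in the 3 GSK-J4 libraries, 7.38, 5.64 and 8.49 CPM in the CKO and 0.463, 1.53 and 7.95 in the controls. Every untreated library of that line lay above 0. Otx2, a homeobox factor of the epiblast and the forebrain, had 1.18, 1.81 and 7.22 CPM with GSK-J4, no count in the Mettl3 CKO and 0, 0.949 and 0.209 CPM in its controls. In the Mettl14 line it had 1 count in 1 library. The antisense gene Otx2os1 had 3, 18 and 35 counts with GSK-J4 beside 4, 15 and 35 for Otx2. Since the strand setting of the counting is not given in the sources used here, reads of the 2 genes cannot be told apart.

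In mesoderm, Pdgfra and Kdr were present in every library and the earlier factors were not. Pdgfra, the PDGF receptor of paraxial mesoderm and of mesenchyme, had 199, 148 and 108 CPM with GSK343, 88.5, 179 and 145 in the Mettl14 CKO and 243, 178 and 111 in the Mettl14 controls. It had 5.30, 8.93 and 31.7 CPM with GSK-J4, 80.2, 100.03 and 87.3 in the Mettl3 CKO and 78.9, 62.6 and 103 in the Mettl3 controls, so all 3 GSK-J4 libraries lay below the other 15. Kdr, the VEGF receptor of lateral mesoderm and endothelium, had 3.91, 0.354 and 15.2 CPM with GSK343, 7.71, 10.7 and 10.7 in the Mettl14 CKO and 10.3, 7.46 and 10.3 in the Mettl14 controls. It had 9.42, 25.2 and 39.0 CPM with GSK-J4, 9.68, 14.6 and 17.1 in the Mettl3 CKO and 17.9, 8.31 and 8.54 in the Mettl3 controls, and the groups overlapped in both lines. Among the factors of gastrulation, Mesp1, which starts heart mesoderm, had 11.8, 1.45 and 0 CPM with GSK-J4, 0.154 in replicate 1 of the Mettl3 CKO, 0.143 in replicate 2 of the Mettl14 CKO, 0.481 in replicate 2 of the Mettl14 controls, and 0 in the other 12 libraries. Eomes had a count in 9 libraries with at most 2.65 CPM, Tbx6 in 5 with at most 0.828, and Mixl1 in 2 with at most 0.349.

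Endoderm genes were low. Gata6, a factor of primitive endoderm and of heart and gut mesenchyme, had 2.61, 1.5 and 0 CPM with GSK343, 5.41, 3.30 and 3.07 in the Mettl14 CKO and 3.50, 3.97 and 1.75 in the Mettl14 controls. It had 2.94, 0 and 9.07 CPM with GSK-J4, 3.69, 14.9 and 0.656 in the Mettl3 CKO and 1.62, 1.08 and 3.70 in the Mettl3 controls, and was the only endoderm member with a median above 1 CPM. Its relative Gata4 had no count with GSK343, 2.42, 1.00 and 0 CPM in the Mettl14 CKO and 0.724, 0.241 and 0.486 in the Mettl14 controls. It had 0, 0.724 and 0 CPM with GSK-J4, 0.154, 1.60 and 0.207 in the Mettl3 CKO and 2.27, 0.610 and 0.767 in the Mettl3 controls. Both genes overlapped between all groups of the Mettl3 line. Sox17, a factor of definitive and visceral endoderm and of vessels, had 7.66, 2.65 and 11.1 CPM with GSK-J4, 0, 0 and 0.0345 in the Mettl3 CKO and 1.16, 0 and 0 in the Mettl3 controls. In the Mettl14 line it was counted only in replicate 1 of the CKO, at 1.15 CPM, so the 3 GSK-J4 libraries had the 3 highest values. Foxa2, the pioneer factor of endoderm, had 9.17 CPM in replicate 2 with GSK-J4, 1.16 and 0.0349 in replicates 1 and 3 of the Mettl3 controls, 0.483 in replicate 1 of the Mettl14 controls and 0 in the other 14 libraries. Afp, the fetal serum protein of yolk sac and liver, had 3.26 CPM in replicate 2 with GSK-J4, 0.932 in replicate 3 of the Mettl3 CKO, 0.185 in replicate 1 of the Mettl3 controls, 0.722 in replicate 2 of the Mettl14 controls and 0 in the other 14. Both were highest in the same GSK-J4 library. Ttr, a carrier protein made by yolk sac endoderm, had 4 counts in 1 library.

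Of the 4 neural genes, Nes and Tubb3 were common and Pax6 and Sox1 were not. Nes (nestin), an intermediate filament of neural progenitors that mesenchymal and vascular cells also make, had 60.3, 31.4 and 26.3 CPM with GSK343, 10.7, 52.0 and 35.3 in the Mettl14 CKO and 25.3, 38.8 and 53.8 in the Mettl14 controls. It had 61.5, 60.1 and 59.2 CPM with GSK-J4, 177, 144 and 139 in the Mettl3 CKO and 82.0, 86.1 and 120 in the Mettl3 controls. The 3 groups of the Mettl3 line did not overlap, with the CKO highest and GSK-J4 lowest. Tubb3, a tubulin of neurons, had 2.37, 0.620 and 5.54 CPM with GSK343, 3.45, 4.30 and 0 in the Mettl14 CKO and 4.10, 3.13 and 7.00 in the Mettl14 controls. It had 0, 1.93 and 7.83 CPM with GSK-J4, 3.93, 10.8 and 2.42 in the Mettl3 CKO and 6.43, 10.2 and 12.6 in the Mettl3 controls, with overlap throughout. Pax6, a factor of the neural tube and eye, had 3.83, 0.362 and 10.5 CPM with GSK-J4, 0.184, 0 and 0.104 in the Mettl3 CKO and 0.139, 0 and 0 in the Mettl3 controls. In the Mettl14 line it was counted with GSK343 alone, at 0.0483, 1.95 and 0 CPM. Sox1, an early neural plate marker, had 7 counts in 1 library with GSK-J4 and 8 in 1 library of the Mettl3 CKO.

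Heart, vessel and blood markers had 1 common member each. Tnnt2 (cardiac troponin T) had 0, 1.42 and 5.54 CPM with GSK343, 5.52, 10 and 13 in the Mettl14 CKO and 4.71, 5.66 and 5.64 in the Mettl14 controls. It had 56.5, 24.5 and 11.5 CPM with GSK-J4, 4.33, 3.31 and 1.59 in the Mettl3 CKO and 3.15, 11.6 and 4.12 in the Mettl3 controls, so the GSK-J4 libraries lay above the CKO and overlapped the controls. The other heart members were low: Nkx2-5 had at most 1.18 CPM and Myh6, the atrial and adult mouse myosin, at most 1.21 CPM, both highest in a GSK-J4 library. Pecam1 (CD31), an adhesion protein of endothelium, had 2.70, 1.42 and 0 CPM with GSK343, 1.5, 0.287 and 3.07 in the Mettl14 CKO and 0.121, 1.56 and 2.24 in the Mettl14 controls. It had 24.4, 6.51 and 0 CPM with GSK-J4, 1.66, 0 and 1.10 in the Mettl3 CKO and 0.555, 1.56 and 1.60 in the Mettl3 controls, with overlap throughout. Tek (TIE2), the angiopoietin receptor, had 8.54, 0 and 0 CPM with GSK-J4, 0, 0 and 0.621 in the Mettl3 CKO and 0.416, 2.37 and 0 in the Mettl3 controls. In the Mettl14 line it had 0, 0.0885 and 0 CPM with GSK343, 0.806, 0.143 and 0 in the CKO and 0, 1.08 and 0.194 in the controls. Cdh5 (VE-cadherin) had at most 0.583 CPM. Runx1, the factor that starts definitive blood and that mesenchymal cells also express, had 85.3, 111 and 132 CPM with GSK343, 90.5, 100.4 and 160 in the Mettl14 CKO and 130, 120 and 96.5 in the Mettl14 controls. It had 74.2, 65.6 and 123 CPM with GSK-J4, 104, 94.3 and 130 in the Mettl3 CKO and 93.4, 69.2 and 73.1 in the Mettl3 controls. Among groups of the same line, only the Mettl3 CKO and its controls did not overlap. Its partners in early blood were nearly absent, with at most 0.883 CPM for Tal1 and 0.573 CPM for the red cell factor Gata1.

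**Figure D4:**
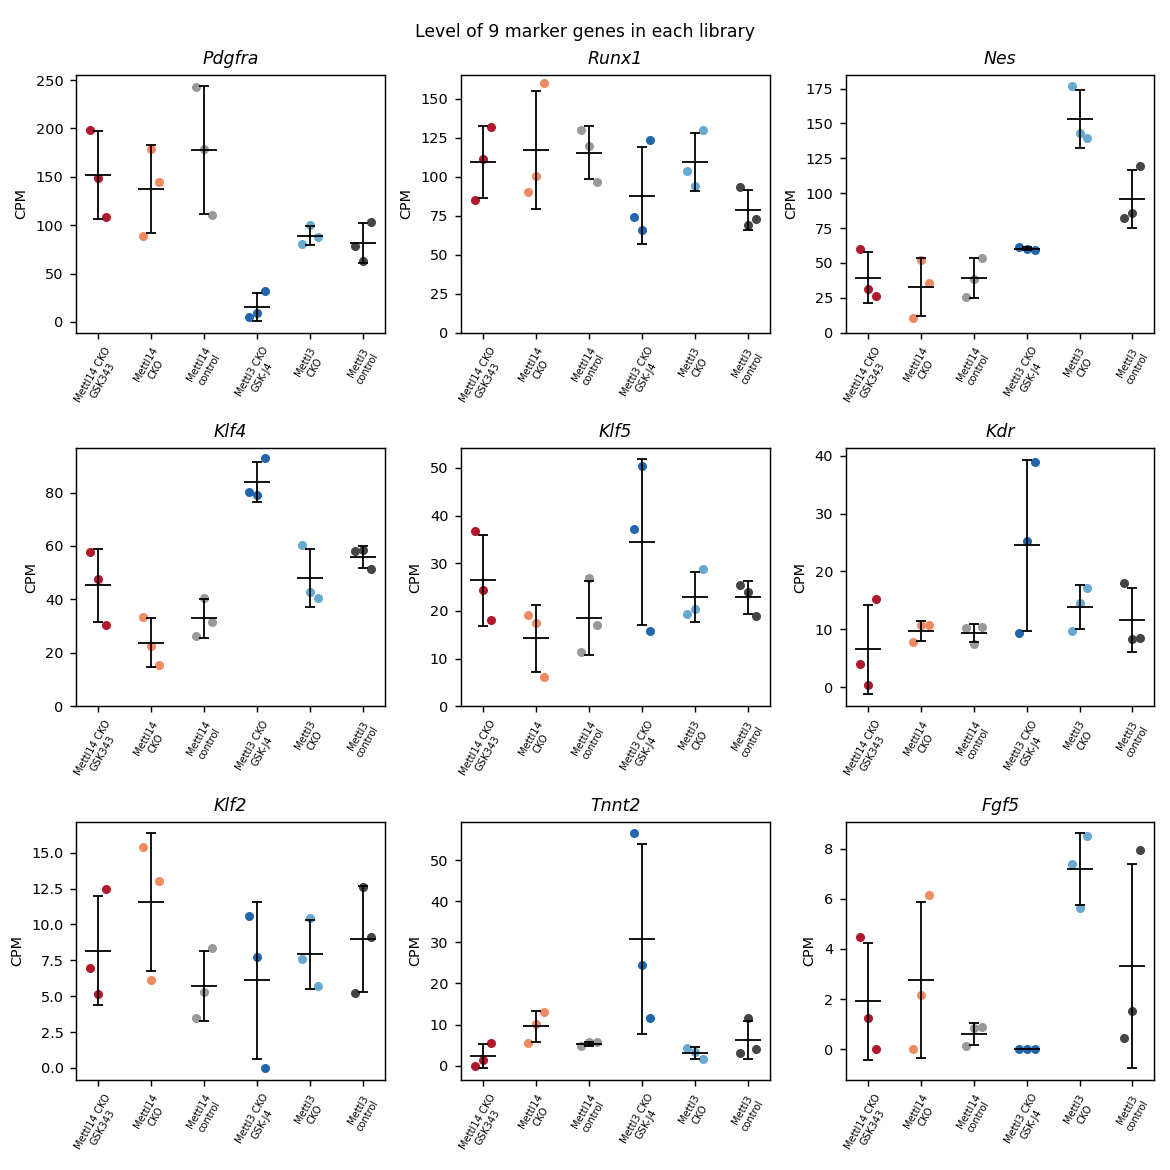
CPM of 9 marker genes in each library (points), with the mean (long line) and SD (error bars) of the 3 libraries of each group. Pdgfra and Fgf5 are lowest with GSK-J4, at 5.30 to 31.7 CPM and at 0, and Klf4 is highest with GSK-J4, at 79.0 to 92.8 CPM.

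Between genes, levels were compared per length, as TPM (counts per base of exon, scaled to the same sum in each library). By the median over the 15 libraries without GSK-J4 the order was Klf4 (36.8 TPM), Pdgfra (26.2), Nes (23.1), Runx1 (20.6), Klf2 (10.7), Klf5 (9.58), Tubb3 (5.46), Kdr (2.76), Tnnt2 (1.42), Fgf5 (1.27) and Gata6 (1.16). The next, Sox2, had 0.973 TPM. The ranges of neighbours overlapped: 3.98 to 54.7 TPM for Klf4, 11.4 to 78.0 for Pdgfra, 3.56 to 71.4 for Nes and 10.5 to 34.7 for Runx1. With GSK-J4 the highest group means were 74.7 ± 7.52 TPM for Klf4, 33.5 ± 58.1 for Dppa5a, 25.4 ± 1.46 for Nes, 19.7 ± 6.87 for Runx1, 18.1 ± 9.92 for Klf5, 14.3 ± 22.3 for Sox2, 12.01 ± 20.8 for Tdgf1 and 10.6 ± 7.36 for Tnnt2 (SD, n = 3). The SDs of Dppa5a, Sox2 and Tdgf1 exceeded their means, and Pdgfra had 4.15 ± 3.85 TPM.

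The first comparison asked what loss of Mettl14 did to these genes. None of the 12 members that passed the low-count filter was called in the Mettl14 CKO against its control, and the other 33 were not tested. In the libraries, Klf2 averaged 11.5 ± 4.81 CPM in the CKO and 5.72 ± 2.46 in the controls (SD, n = 3), Fgf5 2.76 ± 3.11 and 0.613 ± 0.426, and Pdgfra 138 ± 45.8 and 177 ± 66.2, and all 12 tested members overlapped between the groups. By edgeR's quasi-likelihood test with Benjamini-Hochberg adjustment, 0 of 45 members were called at an adjusted p under 0.05, 12 having been tested, and 0% of 13882 genes were. No member and 208 of all genes had an unadjusted p under 0.05, and DESeq2 also called no member. Fitted log2 fold changes were 1.11 ± 0.58 for Klf2, 2.09 ± 1.5 for Fgf5, -0.27 ± 0.30 for Pdgfra and -0.32 ± 0.34 for Klf4 (SE), each with an edgeR adjusted p of 1.00. In data simulated with the depth and spread of this fit, with changed genes drawn from all genes passing the filter, the test found 65% of 4-fold and 11% of 2-fold changes.

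With the inhibitor GSK343 on top of the Mettl14 CKO, none of the 12 tested members was called either. Klf4 averaged 45.3 ± 13.8 CPM with GSK343 and 23.8 ± 9.14 in the CKO (SD, n = 3), with a log2 fold change of 0.83 ± 0.34 (SE, edgeR adjusted p = 0.773). Tnnt2 averaged 2.32 ± 2.88 CPM with GSK343 and 9.53 ± 3.78 in the CKO, with -2.99 ± 1.15 (edgeR adjusted p = 0.738). These were the 2 members with an unadjusted p under 0.05. Gata6 did not overlap, at 1.37 ± 1.31 CPM with GSK343 and 3.92 ± 1.29 in the CKO, with -1.33 ± 0.94 (edgeR adjusted p = 0.946). Its value of 0 with GSK343 came from the library of 721853 counts, where the floor of 3 counts is 4.16 CPM. Its lowest CKO value, 3.07 CPM, was 4 counts in replicate 3, where that floor is 2.30 CPM. The other tested members overlapped, and the share of all genes without overlap was not computed. Pdgfra, Runx1 and Nes had log2 fold changes of 0.07 ± 0.30, -0.20 ± 0.27 and 0.25 ± 0.45. The edgeR test called 0 of 45 members and 0.0288% of 13882 genes, with 797 genes at an unadjusted p under 0.05. Against the Mettl14 control, which shares the GSK343 libraries with that comparison, it again called no member, and 0.166% of genes (0.151% higher and 0.0144% lower). All 12 tested members overlapped there, none had an unadjusted p under 0.05, and DESeq2 called no member in either comparison. Omitting the 2 shallowest libraries (721853 and 1303697 counts), a choice made after seeing the data, left 0 members called in all 3 comparisons of this line.

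For loss of Mettl3, none of the 26 members that passed the filter was called. Nes, Runx1, Sall4 and Sox2 had all 3 CKO libraries above the controls. How many of all tested genes did so was not counted. Nes averaged 153 ± 20.5 CPM in the CKO and 95.9 ± 20.7 in the controls (SD, n = 3), with a log2 fold change of 0.66 ± 0.22 (SE, edgeR adjusted p = 1.00). Runx1 averaged 109 ± 18.4 CPM in the CKO and 78.6 ± 13 in the controls, with 0.46 ± 0.27 (edgeR adjusted p = 1.00). Sall4 had 97 counts in the CKO and 1 in the controls, a pooled ratio of 97.9 with a 95% counting interval of 17.2 to 3906. Without CKO replicate 2, Sall4 had 36 counts in the CKO and a ratio of 46.7. Sox2 had 479 counts in the CKO, 243 of them in replicate 2, and 60 in the controls. Otx2 had 0 counts in the CKO and 34 in the controls, at least 11.2-fold lower with 3 counts over the group as the floor. Control replicate 2 held 28 of them, and without it the bound was 3.14-fold. None of 45 members and 0% of 16782 genes were called by edgeR, while 3 members and 315 genes had an unadjusted p under 0.05, and DESeq2 called no member. With only the CKO and its controls compared, 0 of 19 tested members were called. The fit of all 9 libraries of this line shared its spread with the GSK-J4 libraries. Its biological coefficient of variation (spread between libraries) was 0.843. Each group alone had 0.337 in the CKO, 0.319 in the controls and 0.514 with GSK-J4. Those 3 values used genes filtered within each group, so they cover other genes than the fit. In data simulated with the depth and spread of this fit, the test found 24% of 4-fold and 1% of 2-fold changes. The changed genes were drawn from all genes passing the filter, not from the members.

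The GSK-J4 libraries were the ones in which members changed. Relative to the Mettl3 CKO, the mesoderm and mesenchyme receptor Pdgfra, the filament gene Nes and the epiblast factor Fgf5 fell, and Tnnt2 rose. Pdgfra averaged 15.3 ± 14.3 CPM with GSK-J4 and 89.2 ± 10 in the CKO (SD, n = 3), a log2 fold change of -2.77 ± 0.54 (SE, edgeR adjusted p = 0.00674). Nes averaged 60.3 ± 1.20 CPM with GSK-J4 and 153 ± 20.5 in the CKO, with -1.57 ± 0.23 (edgeR adjusted p = 0.00114). Fgf5 had 0 counts with GSK-J4 and 585 in the CKO, at least 40.8-fold lower with 3 counts over the group as the floor (edgeR adjusted p = 0.0215), and at least 20.3-fold without GSK-J4 replicate 2, the deepest of its group. Tnnt2 averaged 30.9 ± 23.2 CPM with GSK-J4 and 3.08 ± 1.39 in the CKO, with 3.09 ± 0.85 (edgeR adjusted p = 0.0360). In build mm10 (GENCODE M21 annotation), Pdgfra (ENSMUSG00000029231.15) spans bases 75152292 to 75198215 of chromosome 5, plus strand, and Fgf5 (ENSMUSG00000029337.2) bases 98254184 to 98277030 of chromosome 5, plus strand. Nes (ENSMUSG00000004891.16) spans bases 87971078 to 87980451 of chromosome 3, plus strand, and Tnnt2 (ENSMUSG00000026414.13) bases 135836354 to 135852260 of chromosome 1, plus strand. These were 4 of 45 members and 4 of the 26 tested, while 13% of 16782 genes were called, so the count of members stands near the background. The calls of Pdgfra and Nes held in all 12 alternative settings, with a log2 fold change of -3.94 for Pdgfra without GSK-J4 replicate 3. The Tnnt2 call was lost with any of the 3 CKO libraries left out (edgeR adjusted p = 0.0968 to 0.149) and without GSK-J4 replicate 1 (0.111, log2 fold change 2.20), and the Fgf5 call was lost with any CKO library left out (0.0587 to 0.0804).

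Other members differed between the GSK-J4 and CKO libraries without overlap and were not called. The share of all genes without overlap was not computed, so these are given as a description. Klf4 averaged 84.1 ± 7.57 CPM with GSK-J4 and 48.0 ± 10.9 in the CKO (SD, n = 3), a log2 fold change of 0.58 ± 0.25 (SE, edgeR adjusted p = 0.159). Otx2 had 54 counts with GSK-J4 and 0 in the CKO, at least 86.1-fold higher with 3 counts over the group as the floor (edgeR adjusted p = 0.0566). GSK-J4 replicate 3 held 35 of the 54 counts, and without it the bound was 42.8-fold. Sox17 had 102 counts with GSK-J4 and 1 in the CKO, a ratio of 488 with a counting interval of 85.6 to 19448 (edgeR adjusted p = 0.0607). Esrrb had 2 counts with GSK-J4 and 309 in the CKO, a ratio of 0.0309 with an interval of 0.00373 to 0.113 (edgeR adjusted p = 0.0935). DESeq2 called these 4 as well, 8 members in all, and called 3717 genes where edgeR called 2186. Otx2 and Sox17 had a median of 0 over the 15 libraries without GSK-J4. They passed the low-count filter through the GSK-J4 libraries, where they were high, so their p-values and DESeq2 calls add no support. Runx1, at 87.7 ± 31.1 CPM with GSK-J4 and 109 ± 18.4 in the CKO, had -0.55 ± 0.27 (edgeR adjusted p = 0.209).

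Against the Mettl3 controls, which gives the same GSK-J4 libraries another partner, 3 of 45 members were called and 11.4% of 16782 genes. Pdgfra averaged 15.3 ± 14.3 CPM with GSK-J4 and 81.5 ± 20.4 in the controls (SD, n = 3), with a log2 fold change of -2.66 ± 0.54 (SE, edgeR adjusted p = 0.00887). Nes averaged 60.3 ± 1.20 CPM with GSK-J4 and 95.9 ± 20.7 in the controls, with -0.92 ± 0.22 (edgeR adjusted p = 0.0223). Fgf5 had 0 counts with GSK-J4 and 283 in the controls, at least 19.6-fold lower (edgeR adjusted p = 0.0351). Control replicate 3 held 228 of the 283 counts, and without it the bound was 5.93-fold. Tnnt2 had 2.04 ± 0.82 and was not called (edgeR adjusted p = 0.131). DESeq2 called 6 members, namely these 3 with Esrrb, Tnnt2 and Zfp42, and its total over all genes is given at the end. Zfp42 had 0 counts in the controls and passed the filter mostly through the GSK-J4 libraries, so its call adds no support. Without GSK-J4 replicate 3, edgeR called 5 members, with Tnnt2 and Mesp1 added. Without control replicate 2 or 3 the Nes call was lost (edgeR adjusted p = 0.0518 and 0.133), and so was the Fgf5 call (0.0737 and 0.151). The Nes call was also lost with only the 2 groups compared (0.0650) or all 18 libraries fitted (0.106), and the Pdgfra call with only the 2 groups compared (0.0536).

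**Figure D5:**
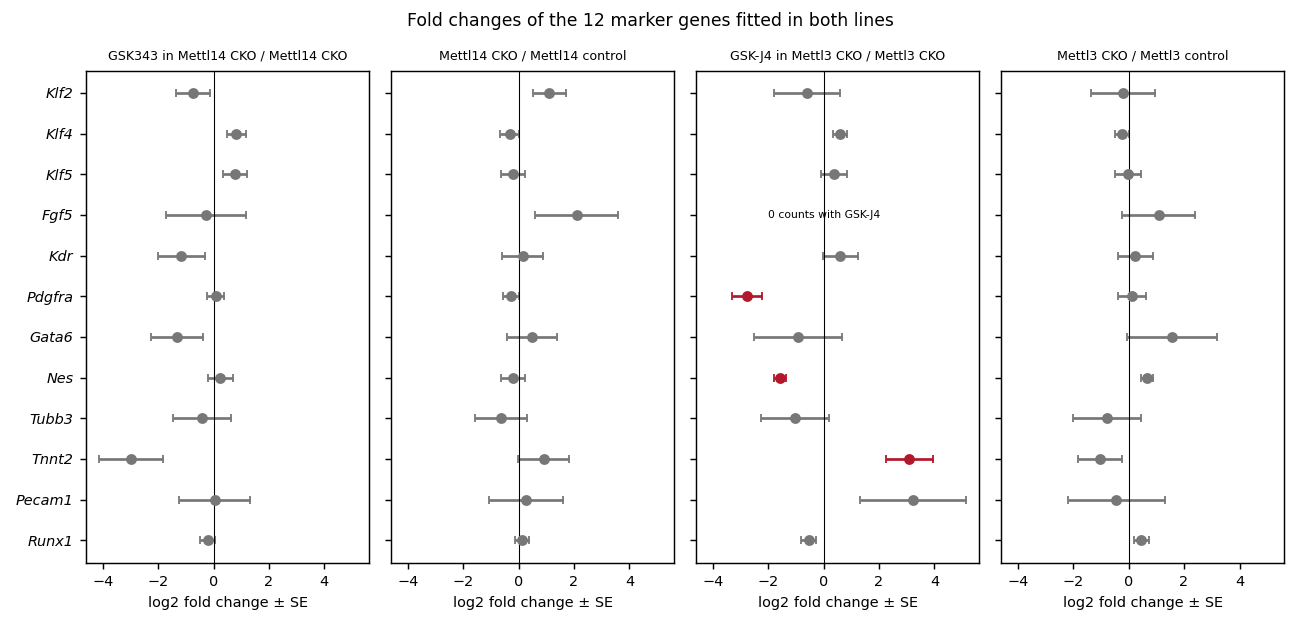
Log2 fold changes with SE (edgeR) of the 12 marker genes that passed the low-count filter in both lines, one panel per comparison, with red points for an adjusted p under 0.05. Red points appear in the GSK-J4 panel alone, for Pdgfra at -2.77, Nes at -1.57 and Tnnt2 at 3.09, and Fgf5 has no point there because it had 0 counts with GSK-J4.

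Markers of other cell types and the quality of the libraries moved with these changes. Of the 20 fibroblast and mesenchyme genes, 17 were called lower and 0 higher with GSK-J4 against the CKO (13 to 18 lower and 0 higher over all settings), among them Col1a1 at 177 CPM with GSK-J4 and 6447 in the CKO and Sparc at 318 and 3506. Of the 11 epithelium genes, 2 were called higher and 0 lower (0 to 4 higher over the settings), Krt18 at 51.1 CPM with GSK-J4 and 2.23 in the CKO and Cldn4 at 43.4 and 0.497. Their summed level was 71.5 to 272 CPM with GSK-J4, 1.97 to 11.7 in the Mettl3 CKO and 3.42 to 10.3 in the Mettl3 controls. Of 8 housekeeping genes, 3 were called higher and 2 lower, namely Eef1a1 at 2190 CPM with GSK-J4 and 4872 in the CKO and Actb at 1346 and 2326. The spread within the group was also larger, with a biological coefficient of variation of 0.514 with GSK-J4 and 0.247 to 0.351 in the other groups. The part of these shifts, and of the low mitochondrial share, in the values of the 45 members was not tested.

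The 26 members with a median of 0 over the other 15 libraries reached 1 CPM more often with GSK-J4, and so did silent genes at large. With GSK-J4, 7, 8 and 6 of the 26 reached 1 CPM (26.9, 30.8 and 23.1%), against 0, 4 and 0 in the Mettl3 CKO, 2, 0 and 0 in the Mettl3 controls, and 0 to 2 in each library of the Mettl14 line. A level of 1 CPM is fewer counts in the GSK-J4 libraries than in the deeper rest of the Mettl3 line. Of the 8530 protein-coding genes with such a median, 15.5, 11.5 and 8.82% reached 1 CPM in the 3 GSK-J4 libraries and 0.844 to 2.78% in each of the other 15. With at least 1 count as the threshold the groups overlapped, at 10, 11 and 7 of the 26 with GSK-J4, 9, 5 and 7 in the Mettl3 CKO and 8, 5 and 7 in the Mettl3 controls. For the 8530 genes the shares with a count were 18.2, 15.4 and 10.3% with GSK-J4. They were 24.3, 5.15 and 22.4% in the Mettl3 CKO and 17.2, 9.61 and 12.8% in the Mettl3 controls. Their summed level was 37.1, 32.8 and 98.3 CPM with GSK-J4, 2.52, 22.6 and 2.90 CPM in the Mettl3 CKO and 3.79, 1.90 and 2.93 CPM in the Mettl3 controls. Since the 26 were picked by their low level outside the GSK-J4 libraries, this is a description with no test. Otx2 and Sox17 were the members of this kind with a count in all 3 GSK-J4 libraries and in at most 1 library of the CKO, while others, such as Nanog, Tdgf1, Dppa5a, Dppa4 and Foxa2, were each counted in 1 GSK-J4 library.

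The controls of the 2 lines were compared last. Pdgfra averaged 177 ± 66.2 CPM in the Mettl14 controls and 81.5 ± 20.4 in the Mettl3 controls (SD, n = 3), a log2 fold change of 1.18 ± 0.43 (SE, edgeR adjusted p = 0.463). Nes averaged 39.3 ± 14.2 CPM in the Mettl14 controls and 95.9 ± 20.7 in the Mettl3 controls, with -1.23 ± 0.41 (edgeR adjusted p = 0.335). Klf4 had -0.71 ± 0.31 and Runx1 0.61 ± 0.28. All 4 had an unadjusted p under 0.05 in the edgeR test, as did 874 of all genes. None of the 4 overlapped between the lines, and the share of all genes without overlap was not computed. The edgeR test called 0 of 45 members and 0.913% of 16326 genes (0.76% higher and 0.153% lower). Nes and Pdgfra were called without the filter on low counts (edgeR adjusted p = 0.0377 and 0.0140) and with only the 2 groups compared (0.0109 and 0.0142), and Pdgfra without the GSK-J4 libraries, a fit added after seeing the data (0.0147). Line and depth cannot be told apart here, since the Mettl3 controls held 21615674 counts or more and the Mettl14 controls at most 10285737. The difference between the 2 knockout effects called 0 of 45 members and 0% of 16326 genes, with 1 member, Sox17, and 366 genes at an unadjusted p under 0.05.

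Lists of further genes of the same lineages were read beside the members. Among 16 other naive pluripotency genes, 10 had a median of 0 over the 15 libraries and only Tbx3, Tet2 and Zfp296 reached 1 CPM. Of 19 other mesendoderm and mesoderm genes, 8 had a median of 0, including T (brachyury), which had a count in 1 library, and Msgn1 and Hand1 had none in any library. Hand2, Foxc1 and Foxc2, factors of limb, heart and trunk mesenchyme, were the highest at 39.5, 33.8 and 16.5 CPM. Of 21 other endoderm genes, 10 had a median of 0, and the highest were Col4a1 (basement membrane collagen) at 1233 CPM and Apoe at 736, which many cell types make. Of 18 other blood genes, 11 had a median of 0, and of 14 other endothelial genes, 7 did. No gene of these lists, nor of the other lists for epiblast, trophoblast, nerve, muscle, germ cells, epithelium, fibroblasts and housekeeping, was called by edgeR in a knockout or GSK343 comparison. Those comparisons called 0%, 0.0288% and 0.166% of genes in the Mettl14 line and 0% for loss of Mettl3. Between the controls, Tbx3 alone among all the lists was called, higher in the Mettl14 controls by 1.40 on the log2 scale, beside 0.76% of genes called higher.

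With GSK-J4 against the Mettl3 CKO, these lists moved unevenly, beside 3.96% of 16782 genes called higher and 9.07% called lower. Naive pluripotency had 1 of 16 higher (0 to 1 over all settings), Trap1a at 19.7 ± 27.8 CPM with GSK-J4 (SD, n = 3) and 0 in the CKO. The SD of Trap1a exceeded its mean. The primed epiblast list had 1 of 10 higher, Sox4 at 926 CPM with GSK-J4 and 293 in the CKO. Endoderm had 4 of 21 lower, among them Apoe at 211 CPM with GSK-J4 and 743 in the CKO and Col4a1 at 457 and 2261. The neural list had 3 of 19 lower, among them Map2 at 3.16 CPM with GSK-J4 and 28.8 in the CKO and Ncam1 at 137 and 249. The neuronal genes Rbfox3 and Elavl3 had higher means and were not called: Rbfox3 averaged 17.1 ± 8.48 CPM with GSK-J4 and 0.424 ± 0.709 in the CKO (edgeR adjusted p = 0.0721), and Elavl3 12.3 ± 7.52 and 0.779 ± 0.783 (0.215). Endothelium had 1 of 14 higher (0 to 1 over all settings), Tie1 at 6.28 ± 4.72 CPM with GSK-J4 and 0 in the CKO. Tie1 had 0 CPM in the Mettl3 controls too, so it passed the low-count filter through the GSK-J4 libraries alone. The list had 1 lower (0 to 2 over all settings), Eng at 11.4 ± 12.7 CPM with GSK-J4 and 72.4 ± 7.19 in the CKO. Of 16 heart and muscle genes, 1 was lower (0 to 1 over all settings), Mef2c at 0.294 ± 0.510 CPM with GSK-J4 and 14.2 ± 4.11 in the CKO. Other muscle genes had higher means with GSK-J4 and were not called: the sarcomere gene Ttn averaged 36.4 ± 20.6 CPM with GSK-J4 and 2.78 ± 2.89 in the CKO (SD, n = 3; edgeR adjusted p = 0.0639), and Tnnc1 averaged 22.0 ± 20.99 CPM with GSK-J4 and 3.86 ± 1.92 in the CKO (0.204). The blood and germ cell lists had 1 lower each, which was the same gene, Kit, at 0 CPM with GSK-J4 and 7.43 ± 4.82 in the CKO. Over all settings, 0 to 3 blood genes and 0 to 2 germ cell genes were called lower. Mesoderm and trophoblast had none called in either direction. Ttn, Rbfox3 and Elavl3 were chosen after their values were seen.

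Against the Mettl3 controls, beside 3.16% of 16782 genes called higher and 8.25% called lower, the edgeR test called 16 of 20 fibroblast and mesenchyme genes and 4 of 21 endoderm genes lower. It called 2 of 19 neural genes, 1 of 16 muscle genes and 1 of 14 endothelial genes lower. It called 1 of 10 epiblast, 1 of 19 mesoderm (Foxf1), 1 of 11 epithelium and 1 of 14 endothelial genes higher, and 2 of 8 housekeeping genes in each direction. The naive pluripotency, trophoblast, blood and germ cell lists had none called.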

How the data were processed

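RNA-seq of 18 libraries (6 groups of 3) was analysed from gene counts. Per the labels' protocols, RNA was extracted with Trizol, poly(A) RNA was selected and stranded libraries were made with the SMARTer kit. Per the submitters' processing notes, the tools were CASAVA, Trimmomatic 0.38, HISAT2 2.1.0 and HTSeq with build mm10; the raw count per gene was deposited by the authors as whole numbers, with no normalization. For the annotation release and the strand setting: not given in the sources used here. Of 54446 identifiers, 54409 matched GENCODE M21 and 37 did not.

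Total counts were 721853 to 32540164 per library, so low genes were read least well in the shallowest libraries. CPM used the plain library total, and TPM used union exon lengths. Tests were edgeR 4.0.16 (filterByExpr, TMM, quasi-likelihood F test, Benjamini-Hochberg threshold 0.05) in R 4.3.3 with limma 3.58.1, on 9 libraries for comparisons within a line and on all 18 for the comparison of lines and of knockout effects. The code was tested on simulated data. Alternatives were DESeq2 1.42.0, RLE size factors, no filter, a replicate block, only the 2 groups compared, all 18 libraries and leaving out each library. Fits without the 2 shallowest libraries and without the GSK-J4 libraries were added after seeing the data. Promoters came from RefSeq (GRCm38.p6). Tables and figures used Python 3.11.15, numpy 2.4.6, pandas 2.3.3, scipy 1.17.1 and matplotlib 3.10.9.

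The 45 members and the 13 lists beside them (183 further genes) were chosen with earlier results of these data known. Values in every library are printed for members averaging at least 1 CPM in any group, for Pou5f1, Nanog and Sox2, and for members called in any comparison; the others are given by counts and ranges. From each list, up to 4 genes with the highest median CPM over the 15 libraries without GSK-J4 and up to 4 called genes with the smallest p could be named. T and the list genes with no count were named after their values were seen.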

Additional observations from a re-analysis of the deposited data

How the results depend on the processing

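None of the fold changes followed through the settings reversed its direction, but 2 pooled counts did with 1 library left out. Sox17 had 1 count in the Mettl3 CKO and 25 in its controls, and 1 and 0 without control replicate 1. Sall4 had 8 counts with GSK-J4 and 1 in the Mettl3 controls, and 0 and 1 without GSK-J4 replicate 2. The knockout of Mettl14 gave 0 genes called, 15 with no filter on low counts and 0 to 7 with 1 library left out. GSK343 against the CKO gave 4 genes, against 56 with DESeq2, 1 with RLE size factors, 50 with no filter, 1 with the replicate block, 0 with all 18 libraries, 2 without the 2 shallowest libraries and 0 to 14 with 1 library left out. GSK343 against the control gave 23, against 71 with DESeq2, 63 with no filter, 35 with only the 2 groups, 2 with all 18, 37 without the 2 shallowest and 4 to 28 with 1 left out. The knockout of Mettl3 gave 0, against 5 with DESeq2, 6 with no filter, 2 with only the 2 groups and 0 with any library left out. GSK-J4 against the CKO gave 2186, against 3717 with DESeq2, 1407 with the replicate block, 977 with only the 2 groups, 3373 with all 18 and 1032 to 3061 with 1 left out. GSK-J4 against the control gave 1916, against 3520, 1256, 887 and 3155 under those settings and 888 to 2798 with 1 left out. The 2 controls gave 149, against 286 with DESeq2, 280 with no filter, 583 with only the 2 groups, 399 without the GSK-J4 libraries and 89 to 112 with 1 left out. The difference between knockout effects gave 0, against 18 with DESeq2, 13 with no filter, 1 without the GSK-J4 libraries and 0 with any library left out. The cause was not tested. Replicate numbers did not pair libraries: 1 of 9 same-numbered pairs correlated above 0.1 in the Mettl14 line (-0.13 to 0.11) and 0 of 9 in the Mettl3 line (-0.04 to 0.09), and 3 of 9 correlated best with their own number in each line. With the block, the edgeR adjusted p against the CKO was 0.0597 for Tnnt2 and 0.0540 for Fgf5, and against the control 0.0584 for Nes and 0.0985 for Fgf5. With only the 2 groups compared, Tnnt2 had 0.0705 against the CKO. Depth limits the low genes: a floor of 3 counts in the library of 721853 counts is 4.16 CPM.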
